A study of Homo sapiens with 6 samples.

Results

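Melatonin was compared with no treatment in MHCC97-H cells, an established and highly metastatic human line of hepatocellular carcinoma. Polyadenylated RNA was sequenced from 4 libraries, 2 of untreated cells and 2 of cells given 0.2 mM melatonin for 16 h, all of the wild-type genotype and grown in serum-containing medium. They are 4 of the 6 libraries of the study; the other 2 came from cells given 40 µM chloroquine for 16 h and entered here for the shared estimate of spread and for 1 direct comparison. The treatment protocol names both agents together without saying whether cells received them singly; each library's own treatment label, followed here, gives 1 agent or none. The members are the genes measured in these libraries: of 62710 genes in the table, 33804 had a count and 16877 had enough counts to be tested. The controls are labelled as receiving no treatment, and the labels name no solvent control for melatonin. Nothing in the labels says that the 2 libraries of a group came from separate cultures, so p-values measure only the spread between these libraries, which may be technical.

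Melatonin is the hormone of the pineal gland and is also made in other tissues. It signals through the G protein-coupled receptors MT1 and MT2, encoded by MTNR1A and MTNR1B, and binds the quinone reductase NQO2 as a lower-affinity site. It is cleared in the liver by CYP1A2 and by sulfation, and is known as a radical scavenger and as the signal of darkness to the circadian clock.

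Total counts were 16716600 and 18514180 in the untreated libraries and 23311452 and 15993730 in the melatonin libraries. A count of 0 allows up to 3 counts, which is 0.123 to 0.184 CPM (counts scaled to library size) in these libraries and covers counting error only. The first principal component held 58.5% of the variance and separated the melatonin libraries from the others, and mitochondrial genes took 4.72% to 5.64% of counts. The cell type in the labels could be checked on 30 hepatocyte genes, of which 26 were under 1 CPM in all 4 libraries. Albumin (ALB) had 0 counts in all 4, and alpha-fetoprotein (AFP) had 0 counts in 3 and 2 counts in melatonin library 2. CPS1, the first enzyme of the urea cycle, had by far the highest level of the other 4, 1361 and 1325 CPM in untreated cells. Most of these 30 genes thus show no hepatocyte profile, and the identity of the line rests on the labels. Of 14 markers shared by bile duct and progenitor cells 5 were under 1 CPM in all 4 libraries, and KRT7 at 916 and 973 CPM made up most of their summed 1316 and 1368 CPM in untreated cells. Summed markers of fibroblasts were 35.2 and 39.0 CPM in untreated and 26.2 and 24.0 CPM in melatonin cells; those of leukocytes were at most 10.8 CPM, of endothelium at most 7.64 CPM and of red blood cells at most 0.613 CPM in any of these 4 libraries.

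The level of 8782 of the 16877 tested genes, or 52.0%, differed between melatonin and untreated cells. Of these, 4307 rose (25.5% of tested genes) and 4475 fell (26.5%) at an adjusted p under 0.05 in edgeR's quasi-likelihood test with Benjamini-Hochberg adjustment. Most changes were small: the median size of a called change was 0.44 on the log2 scale, and 1310 genes changed at least 2-fold, 638 upward and 672 downward. The count of 8782 rests on a very tight spread between the 2 libraries of a group, with a common biological coefficient of variation of 0.0315, and against a 1.5-fold change in place of no change 499 genes rose and 698 fell. With scaling to library totals alone, 5541 genes rose and 3434 fell, since that scaling moves the median change upward by 0.0955 on the log2 scale. CPM are scaled by TMM factors, and pairs of CPM are given for library 1 and library 2 of a group, untreated before melatonin. For every list of genes given next, the count of called members is to be read beside these shares of all tested genes. Of the 12976 tested protein-coding genes 29.5% rose and 30.8% fell, the closer shares for lists of protein-coding genes. The libraries of the 2 groups did not overlap in 74.1% of all tested genes and in 8750 of the 8782 called. Statements below that the groups of a gene lie apart are to be read beside that share.

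**Figure D1:**
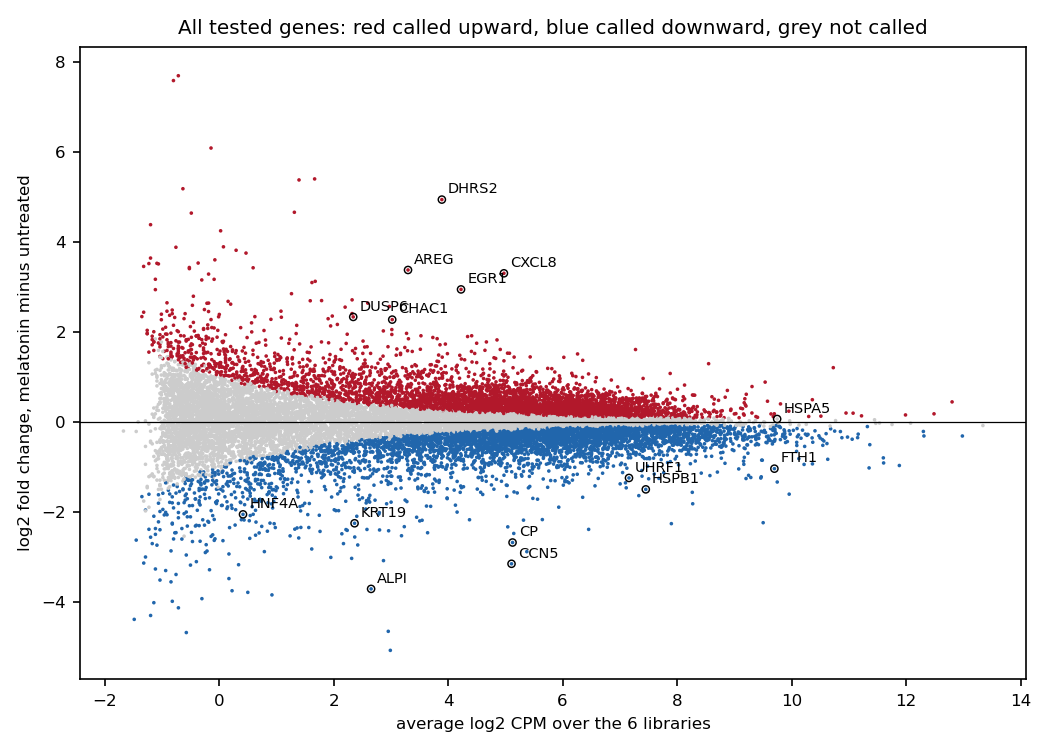
Log2 fold change of melatonin against untreated cells (vertical axis) by average log2 CPM over 6 libraries (horizontal axis) for the 16877 tested genes, 1 point a gene. Called genes lie on both sides of 0 at every level. Among the labelled genes DHRS2, AREG, CXCL8 and EGR1 stand highest while ALPI, CCN5 and CP stand low.

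The direction of change moved with the base composition of the transcript. The quintiles, slopes and correlations given here use the 12690 genes with known GC content and an average log2 CPM above 1, not all tested genes. In the quintile of genes with the lowest GC content 53.2% rose and 14.2% fell, and in the quintile with the highest 9.1% rose and 56.2% fell. The change fell by 0.218 on the log2 scale per 10% of GC content, while between the 2 libraries of a group the same slope was at most 0.0185 in size. Longer transcripts also stood higher, with a Spearman correlation of 0.207 between change and length across genes, which are not independent replicates, and at most 0.0377 between libraries of a group. The part of this trend in any single gene's change was not tested. With the trend taken out by GC and length offsets, 8152 genes were called, of which 6552 were called the same way as without offsets and 81 the opposite way; of the 1310 genes that changed at least 2-fold, 1226 were still called. Counts with the offsets are given beside several lists below, and they can differ for the others too.

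**Figure D2:**
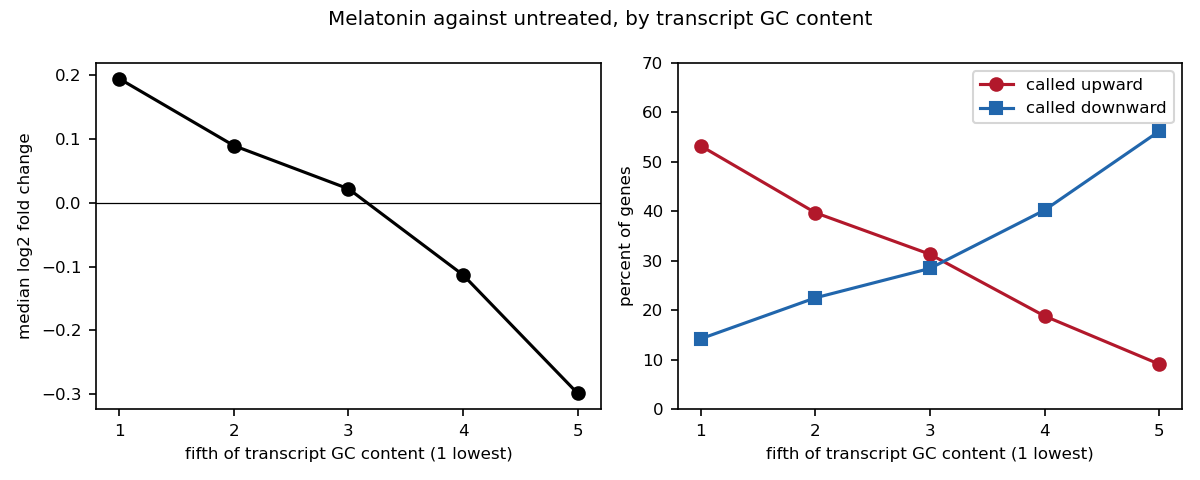
Median log2 fold change (left, vertical axis) and percent of genes called upward and downward (right, vertical axis) in each quintile of transcript GC content (horizontal axis, 1 lowest). The median goes from 0.195 in the first quintile to -0.299 in the last. Quintiles are of the 12690 genes with known GC content and an average log2 CPM above 1.

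The melatonin receptors were at the limit of detection. MTNR1A had 0 and 1 counts in untreated cells and 0 and 1 counts in melatonin cells, and MTNR1B had 0 counts in all 4 libraries. CYP1A2, the main melatonin hydroxylase of liver, also had 0 counts in all 4. NQO2, the quinone reductase that binds melatonin, was 34 and 37.5 CPM in untreated and 45.7 and 51.3 CPM in melatonin cells and rose by 0.43 on the log2 scale (SE 0.0734, adjusted p = 1.48e-05). Both melatonin libraries thus stood above both untreated libraries for NQO2, while the 2 receptor genes give no comparison at this depth.

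Genes around the aryl hydrocarbon receptor, the ligand-activated regulator of the CYP1 enzymes, did not move one way. The receptor itself, AHR, was 42.7 and 40.8 CPM in untreated and 72.7 and 70.5 CPM in melatonin cells and rose 1.72-fold (adjusted p = 1.11e-11). Its target CYP1B1, an oxidase of estrogens and other aromatic compounds, was 77 and 75.9 CPM and 39.2 and 40.4 CPM and fell (log2 -0.94, SE 0.0545). ALDH3A1, an aldehyde dehydrogenase of the same battery, fell from 2.08 and 2.77 CPM to 0.90 and 0.786 CPM. CYP1A1 had 18 and 40 counts in untreated and 33 and 13 counts in melatonin cells, so its groups overlapped and it was not called (adjusted p = 0.181); without untreated library 1 it is called. Of the 14 tested genes of melatonin synthesis, breakdown and this receptor, 3 rose and 4 fell; with the offsets these counts are 1 and 3.

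Of 21 tested clock genes, 8 rose and 7 fell; the rises number 5 with DESeq2 or without untreated library 2. NR1D2, the repressor REV-ERB beta, was 45.5 and 50.6 CPM in untreated and 125 and 123 CPM in melatonin cells and rose 2.57-fold (adjusted p = 3.64e-18), and its paralog NR1D1 at 9.5 and 7.31 and 9.16 and 8.16 CPM was not called. BHLHE41, which represses CLOCK-driven transcription, rose by 1.30 on the log2 scale (SE 0.17), and its relative BHLHE40 fell from 439.7 and 387 CPM to 309 and 325 CPM. Relatives within 2 families of clock repressors therefore differed in their values. Among the negative-limb period genes, PER3 fell (log2 -0.87, SE 0.0905) and PER2 fell by less (log2 -0.42), a call that is lost with DESeq2 and without melatonin library 1 or untreated library 2. CLOCK, a subunit of the activating heterodimer, rose (log2 0.41), and its partner BMAL1 (log2 -0.12), CRY1 (log2 -0.10) and PER1 (log2 0.11) were not called. With the offsets BMAL1 and CRY1 are called downward and PER1 upward, the latter also with library totals alone.

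Among genes whose log2 CPM averaged at least 2, the largest rise was that of DHRS2, a short-chain dehydrogenase of mitochondria and nucleus (chromosome 14, 23630115 to 23645639, plus strand, GRCh38). It was 0.736 and 1.77 CPM in untreated and 39.9 and 38.6 CPM in melatonin cells, a 30.6-fold rise (log2 4.93, SE 0.16, adjusted p = 2.49e-19). The untreated libraries held few reads of it, 12 and 32 counts, and differed from each other more than the melatonin libraries did; without untreated library 2 the rise is log2 5.72. Next came AREG, the epidermal growth factor receptor (EGFR) ligand amphiregulin, at 1.9 and 2.55 CPM and 24.4 and 21.8 CPM (log2 3.37), and CXCL8, the neutrophil chemokine interleukin-8, at 7.11 and 7.08 CPM and 69.5 and 70.2 CPM (log2 3.30). EGR1, an immediate early zinc finger factor, went from 5.7 and 4.93 CPM to 39.1 and 42.5 CPM (log2 2.94). The floor on log2 CPM is an average over 6 libraries, which DHRS2 and AREG reached only through their melatonin values. Groups that do not overlap were a condition for choosing these genes, so their separation is not a result. The change of AREG is log2 3.18 without untreated library 1 and 3.60 without untreated library 2. The other 11 of the 15 largest rises ran from log2 1.96 to 2.71. They hold the secreted glycoprotein gene CRISPLD2, the serine protease inhibitor SERPINI1, the lipid raft adaptor PAG1, the tight junction protein CLDN1, the cyclic AMP response factor CREB5, the ERK phosphatase DUSP6, the glutathione-degrading enzyme CHAC1, the transposase-derived gene PGBD5, the dynein adaptor BICDL1, the ephrin EFNB2 and the netrin receptor UNC5B.

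The largest fall was that of ALPI, intestinal alkaline phosphatase (chromosome 2, 232456123 to 232460032, plus strand, GRCh38), from 13.2 and 13.3 CPM to 0.859 and 1.21 CPM (log2 -3.71, SE 0.21, adjusted p = 3.59e-14). Its placental relative ALPP fell from 57.3 and 63.5 CPM to 10.9 and 10.8 CPM. These 2 genes are close copies, as are SERPINB3 and SERPINB4, the squamous cell carcinoma antigens, which fell (log2 -2.71 and -2.56); how reads shared by such copies were counted is not given in the sources used here. CCN5, a secreted matricellular protein, went from 56.6 and 58.4 CPM to 6.13 and 6.89 CPM (log2 -3.16), and CP, the copper-carrying plasma ferroxidase ceruloplasmin, from 53.1 and 50.9 CPM to 7.73 and 8.58 CPM (log2 -2.68). These falls, too, were chosen on the condition that the groups do not overlap. The imprinted noncoding RNA H19 is the least certain of these falls: it was 176 and 32.4 CPM in untreated and 3.72 and 27.4 CPM in melatonin cells, so each library decides its value. Its change is log2 -1.20 without untreated library 1, -3.67 without untreated library 2, -1.91 without melatonin library 1 and -4.79 without melatonin library 2, and the call is lost with DESeq2. The rest of the 15 are the apoptosis inhibitor BIRC7, the cardiac actin ACTC1, the keratinocyte caspase CASP14, the antisense RNA GAS6-AS1, the calcium-binding S100A3, the cyclic AMP phosphodiesterase PDE4B, the fibroblast protease FAP and the sodium pump partner NKAIN4. Their log2 changes ran from -2.40 to -3.09. Without a stated strand setting, reads of GAS6-AS1 and GAS6 cannot be told apart.

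**Figure D3:**
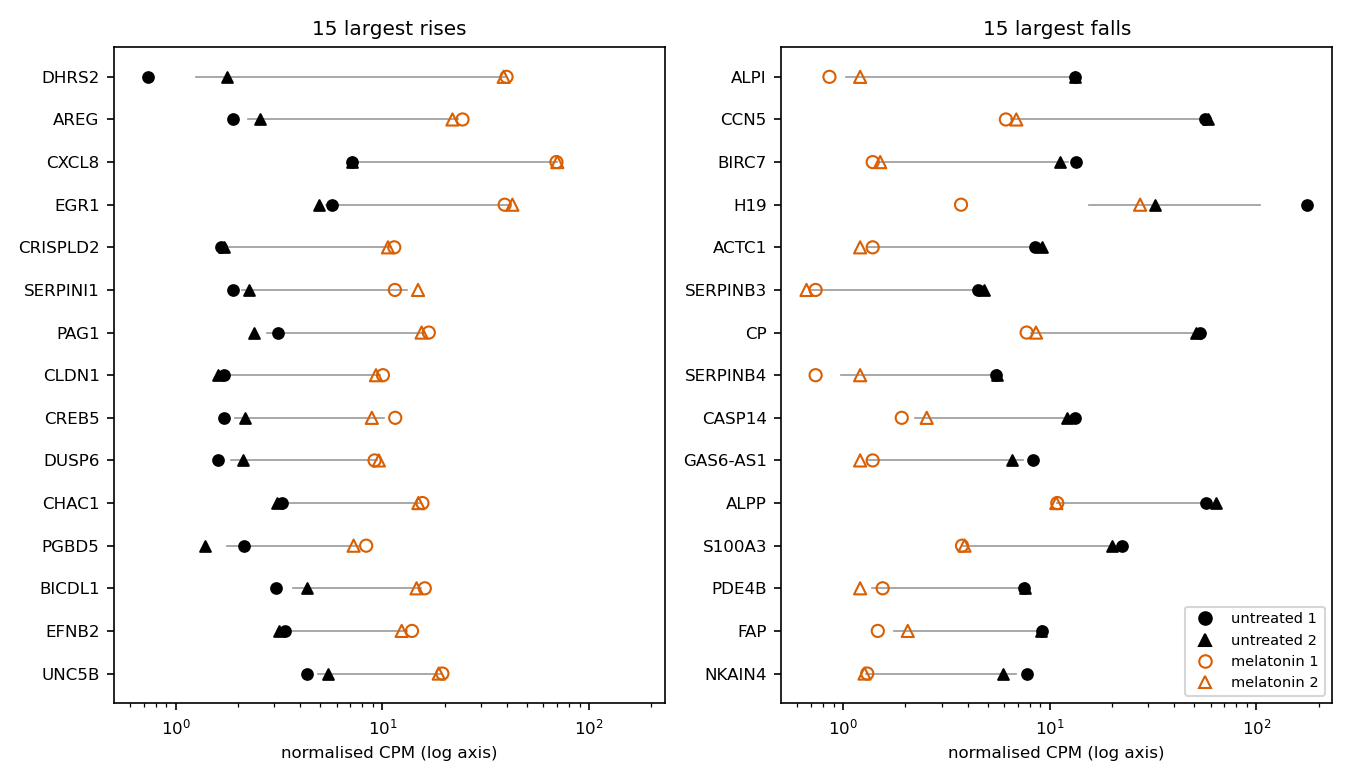
Normalised CPM in each of the 4 libraries (horizontal axis, log scale) for the 15 largest rises (left) and the 15 largest falls (right), with filled symbols for untreated, open symbols for melatonin and a grey line between the group means. Groups that do not overlap were a condition for choosing these 30 genes, and H19 shows the widest spread between libraries of a group.

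Growth factor genes and ERK targets rose in most tested members, and immediate early genes rose more often than they fell. Epidermal growth factor ligands bind EGFR and its relatives, which signal through the ERK kinases; ERK activity is known to induce immediate early factors and then its own inhibitors. Of 14 tested genes of this receptor family and its ligands, 11 rose and 2 fell, with a median log2 change of 0.62 against 0.0053 over all tested genes. With the offsets 8 rose at a median of 0.43, and 8 rose with DESeq2 or without untreated library 2. Besides AREG, the ligand HBEGF went from 5.21 and 5.76 CPM to 15.7 and 15.8 CPM (log2 1.52, SE 0.13) and TGFA from 5.09 and 3.38 CPM to 10.8 and 12.4 CPM (log2 1.46). EREG, a further ligand, rose by less (log2 0.57), and ERBB2, the receptor without a ligand of its own, fell (log2 -0.29).

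Among 27 tested ERK feedback genes and ETS targets, 19 rose and 1 fell (median log2 0.54). The rises number 13 with DESeq2, 20 with the offsets and 21 with library totals alone. DUSP6, the phosphatase that switches off ERK, was 1.59 and 2.1 CPM in untreated and 9.16 and 9.61 CPM in melatonin cells, a 5.02-fold rise (adjusted p = 1.16e-10). The ETS factor ETV5 went from 17.9 and 17.8 CPM to 52.1 and 50.3 CPM, PHLDA1 from 14 and 13.8 CPM to 41.8 and 42 CPM and the cytokine IL11 from 6.68 and 7.08 CPM to 25.1 and 25.4 CPM. Each of these had both melatonin libraries above both untreated libraries. CCND1, the cyclin D1 gene and a common end point of this pathway, was 78.2 and 76.2 CPM and 77 and 83.5 CPM and was not called, except upward with library totals alone.

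Of 35 immediate early transcription factor genes, 19 rose and 9 fell (median log2 0.32). The rises number 23 with the offsets, 14 with DESeq2 and 15 to 18 with any 1 library left out. FOS, a subunit of AP-1, went from 11.3 and 10.4 CPM to 18 and 20.1 CPM (log2 0.80, SE 0.11), KLF4 from 9.87 and 8.3 CPM to 22.7 and 26.7 CPM (log2 1.44) and ID1, an inhibitor of helix-loop-helix factors, from 172 and 166 CPM to 277 and 283 CPM. The proliferation factor MYC went the other way, falling from 313 and 313 CPM to 177 and 191 CPM (log2 -0.77, adjusted p = 1.33e-15). MYC belongs to the immediate early genes but also to the ribosome biogenesis list described later.

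NF-kB drives chemokines, cytokines and its own inhibitors. Of 33 tested NF-kB and inflammatory genes, 21 rose and 5 fell, with a median log2 change of 0.72. Interleukin-6 (IL6) went from 11.2 and 10.6 CPM to 34.7 and 38.6 CPM (log2 1.74, SE 0.11), the prostaglandin synthase PTGS2 from 39.5 and 38.1 CPM to 112 and 108 CPM (log2 1.51) and the ubiquitin ligase BIRC3 from 25.7 and 25.8 CPM to 59.5 and 53.9 CPM (log2 1.14). IL32, a cytokine of epithelial and immune cells, fell from 48.6 and 44.6 CPM to 18 and 16.8 CPM. CXCL8, IL6 and PTGS2 are also ERK and AP-1 targets. Summed leukocyte markers were at most 7.86 CPM in melatonin cells and below their level in both untreated libraries.

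Interferon-stimulated genes did not share this direction. Of 35 tested, 14 rose and 12 fell, with a median log2 change of 0.07. The interferon-stimulated genes named next have among the smallest p of the list and are all falls. The antiviral membrane proteins IFITM3 (224 and 237 to 115 and 118 CPM, log2 -0.99) and IFITM2 (log2 -1.30), which are close copies, fell, as did OASL (log2 -1.43) and IFI44L (log2 -1.56). MHC class I presentation was split as well, with 6 of 18 up and 8 down, the peptide transporter TAP1 rising (log2 0.54) and the antigen gene HLA-B falling (log2 -0.44); with the offsets 5 are down.

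**Figure D4:**
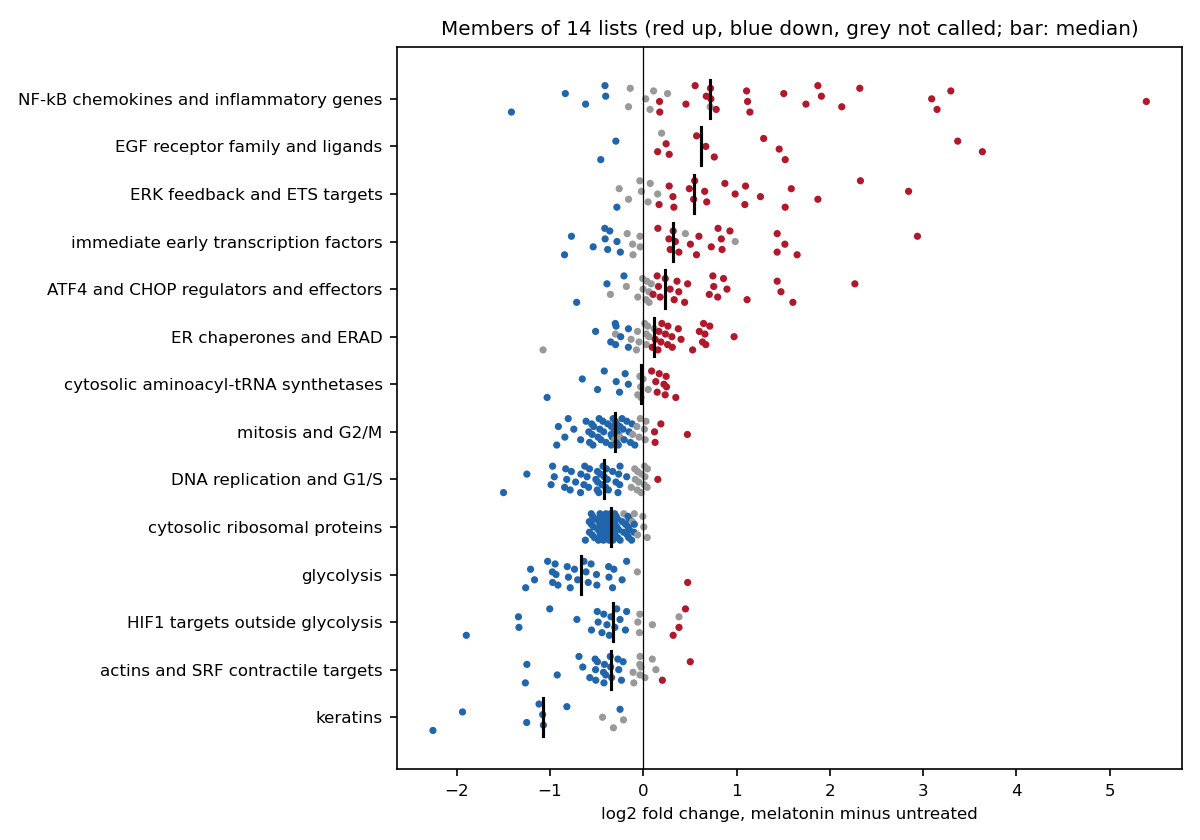
Log2 fold change (horizontal axis) of each tested member of 14 gene lists (rows), coloured by call, with a black bar at the list's median. Medians run from 0.72 for NF-kB genes to -1.07 for keratins.

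The PERK arm of the unfolded protein response slows translation through eIF2 alpha and lets ATF4 be made, which with CHOP (DDIT3) and C/EBP partners induces amino acid and stress genes. Of 35 tested regulators and effectors, 22 rose and 3 fell (median log2 0.24). The rises number 16 with DESeq2, 23 with the offsets and 28 with library totals alone. CHAC1, which breaks down glutathione (chromosome 15, 40952962 to 40956519, plus strand, GRCh38), was 3.25 and 3.1 CPM in untreated and 15.6 and 14.9 CPM in melatonin cells, a 4.82-fold rise (log2 2.27, SE 0.16, adjusted p = 1.77e-12). SLC7A11, the cystine importer, went from 86.3 and 86.8 CPM to 269 and 257 CPM (log2 1.60), DDIT3 from 7.6 and 8.14 CPM to 21.4 and 22.5 CPM (log2 1.48) and the feedback repressor ATF3 from 22.9 and 20.8 CPM to 57 and 61.2 CPM (log2 1.44). No library of one group reached the range of the other in these 4 genes, as in 74.1% of all tested genes. ATF4 itself rose by less (log2 0.48, SE 0.0347). Its control is known to lie largely at translation, which was not measured here.

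Promoters of this list were read for the ATF4 and C/EBP composite element, TGATGNAA on either strand, in the 300 bases around each RefSeq start. It was found in 10.7% of 28 listed promoters, in 1.67% of 11485 tested genes with a promoter and in 3.67% of all 27305 promoters. CHAC1 and ATF3 are shown because they are the 2 matches among the members with the smallest p; each line gives 60 bases of GRCh38.p14, 5′ to 3′ on the gene's strand, with the element in capitals.
CHAC1: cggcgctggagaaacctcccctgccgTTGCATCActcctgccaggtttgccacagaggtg
ATF3: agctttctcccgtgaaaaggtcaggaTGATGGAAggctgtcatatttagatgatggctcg
The CHAC1 stretch is chr15:40953236-40953295 (plus strand), with the element 209 bases before the start and reading TGATGCAA on the opposite strand. The ATF3 stretch is chr1:212565190-212565249 (plus strand), with the element 191 bases before the start. The DDIT3 promoter had no match in its window. Over all tested genes, those with the element rose in 30.7% and those without in 28.8% of cases.

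Amino acid genes tied to this response were mixed. ASNS, asparagine synthetase, went from 2.15 and 2.27 CPM to 8.87 and 8.1 CPM, a 3.85-fold rise (adjusted p = 1.24e-09). In its list of 20 serine, one-carbon and asparagine genes, 7 rose, among them the serine enzyme PSAT1 (log2 0.56) and the mitochondrial folate enzyme MTHFD2 (log2 0.59), and 8 fell, among them SHMT1 (log2 -0.71), SHMT2 (log2 -0.52) and the cytosolic MTHFD1 (log2 -0.72). Of 25 amino acid transporters 8 rose and 7 fell; the neutral transporter SLC1A4 rose from 26.4 and 27.6 CPM to 59.3 and 58.6 CPM. Cytosolic aminoacyl-tRNA synthetases were split at 9 up and 8 down of 23, with AARS1 rising (log2 0.35) and VARS1 falling (log2 -1.03). Of 17 mitochondrial synthetases 1 rose and 9 fell, or 5 with DESeq2 or with library totals alone.

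In the IRE1 and ATF6 arms, which expand the folding and disposal capacity of the endoplasmic reticulum, 21 of 41 tested chaperone and disposal genes rose and 8 fell. With the GC and length offsets these counts are 15 and 11. ERN1, the sensor kinase IRE1, went from 19.6 and 18 CPM to 36.6 and 37.1 CPM (log2 0.97, SE 0.0807), and its substrate XBP1 from 61.5 and 60.7 CPM to 98.5 and 94.5 CPM (log2 0.66). The disposal genes EDEM3 (log2 0.71) and SEL1L (log2 0.53) and the retention chaperone ERP44 (log2 0.67) rose. The master chaperone HSPA5, or BiP, was 829.9 and 859 CPM and 862 and 901 CPM and was not called (log2 0.06, adjusted p = 0.142), and CALR fell (log2 -0.29). HSPA5 is called upward with library totals alone and without melatonin library 1.

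Most tested genes of DNA replication and mitosis fell. The MCM helicase loads at origins in G1 and is induced by E2F when RB is phosphorylated. Of 52 tested replication genes, 38 fell and 1 rose (median log2 -0.43). UHRF1, which carries DNA methylation through replication, went from 186 and 184 CPM to 78.6 and 77.1 CPM (log2 -1.25, SE 0.0410, adjusted p = 2.07e-19). The helicase subunits MCM5 (160.5 and 158 to 78.5 and 86.7 CPM, log2 -0.95), MCM2 (log2 -0.78), MCM7 (log2 -0.77) and MCM3 (log2 -0.67) fell, and for each the melatonin libraries lay below both untreated libraries. In the mitosis and G2/M list 42 of 55 fell and 4 rose. The proliferation antigen gene MKI67 went from 636 and 652 CPM to 411 and 449 CPM (log2 -0.58), the ubiquitin-conjugating UBE2C from 99.5 and 99.4 CPM to 52.9 and 52.9 CPM (log2 -0.91) and the kinase PLK1 from 154 and 155 CPM to 89 and 96.3 CPM (log2 -0.74). Fewer cycling cells and less RNA per cell cannot be told apart in bulk RNA.

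Replication promoters were read for E2F sites, TTTGGCGC, TTTCCCGC, TTTCGCGC or TTTGGCGG on either strand. They were found in 55.8% of 43 replication promoters, in 5.52% of tested genes and in 3.43% of all promoters. The 4 genes below are shown because they carry the site and have among the smallest p of their list; capitals mark the site.
UHRF1: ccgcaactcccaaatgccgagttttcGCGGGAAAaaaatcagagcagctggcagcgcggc
MCM2: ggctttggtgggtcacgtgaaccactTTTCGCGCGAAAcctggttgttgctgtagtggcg
MCM7: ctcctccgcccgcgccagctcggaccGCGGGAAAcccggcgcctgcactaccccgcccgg
MCM3: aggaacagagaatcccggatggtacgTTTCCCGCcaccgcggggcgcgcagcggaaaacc
The stretches are chr19:4909461-4909520 (plus), chr3:127598387-127598446 (plus), chr7:100101551-100101610 (minus) and chr6:52284883-52284942 (minus). In MCM2 the capitals hold 2 overlapping matches, 1 on each strand, at the annotated start; the first match lies 14 bases before the start in UHRF1, 187 in MCM7 and 174 in MCM3. Of the 24 replication members with a site 22 fell, and of the 19 without one 12 fell, with medians of log2 -0.49 and -0.25. Over all tested genes, 34.1% of those with a site and 28.98% of those without fell.

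Upstream of these genes, 14 of 26 G1 cyclins, kinases and RB pathway genes fell and 3 rose. CDK4 went from 180.0 and 186 CPM to 114 and 114 CPM (log2 -0.68), and CDKN2A, which encodes the CDK4 inhibitor p16, also fell (log2 -1.0). CDKN1A, the p21 inhibitor, was 125 and 121 CPM and 122 and 109 CPM and was not called (log2 -0.09); with the offsets it is called upward at log2 0.13, and without melatonin library 1 it is called downward at log2 -0.17. In homologous recombination and Fanconi repair 18 of 34 fell, FANCD2 among them (log2 -0.49), and 5 rose, among them the damage kinase ATM (log2 0.35).

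Growth arrest and apoptosis genes moved both ways. GADD45A, a growth arrest gene also induced by ATF4, went from 13 and 11.8 CPM to 33.6 and 30.5 CPM (log2 1.38), and the BH3-only gene PMAIP1, or NOXA, from 53.1 and 53.6 CPM to 108 and 106 CPM (log2 1.0). Among 32 apoptosis regulators 13 rose and 10 fell. The death ligand TRAIL (TNFSF10) went from 28.3 and 29.4 CPM to 11.5 and 8.16 CPM (log2 -1.52) and the BH3-only gene BMF (log2 -1.57) and the pore-forming BAX (log2 -0.64) fell, while the survival gene BCL2 rose (log2 0.72).

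Among lists with at least 10 tested genes, glycolysis had the highest share of falls, 26 of 28 tested genes, with 1 rise and a median log2 change of -0.67. The isomerase GPI (chromosome 19, 34359480 to 34402413, plus strand, GRCh38) went from 803 and 789.7 CPM to 319 and 347 CPM (log2 -1.26, SE 0.0376, adjusted p = 2.86e-20). PGK1, which makes ATP from bisphosphoglycerate, went from 3245 and 3233 CPM to 1572 and 1610 CPM (log2 -1.03), and LDHA, which reduces pyruvate to lactate, from 4711 and 4632 CPM to 2337 and 2426 CPM (log2 -0.97). The falls extended from entry to exit: the glucose transporter SLC2A1 (log2 -0.70), hexokinase HK2 (log2 -0.64), TPI1 (log2 -0.94) and the lactate exporter SLC16A3 (log2 -1.21). With the offsets 25 fell and 1 rose.

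Hypoxia-inducible factor 1 (HIF1) induces glycolysis through hypoxia response elements, searched here as the letters ACGTGC or GCGTGC. Its targets outside glycolysis fell in most tested members, with 18 of 26 down and 3 up. Carbonic anhydrase 9 (CA9) went from 89.7 and 89.7 CPM to 22.2 and 26.5 CPM (log2 -1.90, SE 0.0657), NDRG1 from 1208 and 976 CPM to 429 and 434 CPM (log2 -1.34) and the prolyl hydroxylase EGLN3 from 103 and 85.1 CPM to 37.2 and 37.5 CPM (log2 -1.33). VEGFA, the vascular growth factor and also an ATF4 target, fell by less (log2 -0.39). The elements, read on both strands, were in 40.0% of 25 glycolysis promoters, 27.1% of tested genes and 18.8% of all promoters. PGK1 and LDHA are shown as the 2 matches among the members with the smallest p.
PGK1: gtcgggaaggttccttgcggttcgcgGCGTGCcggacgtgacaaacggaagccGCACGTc
LDHA: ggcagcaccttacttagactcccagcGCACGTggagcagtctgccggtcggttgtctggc
The PGK1 stretch is chrX:78104011-78104070 (plus) and shows 2 of its 3 matches, the first 211 bases before the start. The LDHA stretch is chr11:18394351-18394410 (plus), with the match 186 bases before the start, where its letters overlap an E-box, CACGTG. No match to these full letters was found in the windows of GPI, TPI1 or SLC16A3, and shorter forms of the element were not searched. Tested genes with the element fell in 30.5% and those without in 28.8% of cases.

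Pentose phosphate, TCA cycle and nuclear-encoded respiratory chain genes fell far more often than they rose, by less than those of glycolysis in the median. In the pentose phosphate and TCA cycle list 21 of 31 fell and 3 rose, with the transketolase TKT at log2 -0.60 and the malate dehydrogenase MDH2 at log2 -0.53. Of 47 complex I and III genes 28 fell and 2 rose, and of 30 complex IV and ATP synthase genes 21 fell and 1 rose. The falls of complex I and III number 22 with the offsets and 20 with DESeq2 or with library totals alone. CYC1, cytochrome c1, went from 162 and 166 CPM to 106 and 109.9 CPM (log2 -0.61), and ATP5F1B, the catalytic beta subunit, from 1269 and 1286 CPM to 860.4 and 914 CPM (log2 -0.53). The mRNAs encoded in mitochondrial DNA did not fall with them: 3 of 13 rose and 2 fell, with a median of log2 -0.03 and changes no larger than that of MT-CO3 (log2 -0.22) among those called. The falls number 9 without melatonin library 2 and 6 without untreated library 2, and the rises 6 without melatonin library 1.

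The translation machinery fell in most of its parts. Of 75 tested cytosolic ribosomal protein genes 68 fell and 0 rose, with a median log2 change of -0.35. RPL3 went from 1731 and 1774 CPM to 1251 and 1186 CPM (log2 -0.52). These genes have many processed pseudogenes, and how shared reads were counted is not given in the sources used here. With the offsets, 63 fell and 2 rose. Of 44 MYC and ribosome biogenesis genes 31 fell, among them the rRNA methyltransferase FBL (335 and 341 to 195 and 216 CPM, log2 -0.72) and the processing factor BOP1 (log2 -0.89). The polyamine enzyme ODC1, a known MYC target, rose from 218 and 224 CPM to 361 and 418 CPM (log2 0.81). Translation factors were 21 down and 8 up of 36: EIF5A fell (log2 -0.81), while EIF1 (log2 0.70) and EIF5 (log2 0.55), which act in start codon choice, rose. Of 34 splicing regulators of the SR and hnRNP families 23 fell; this count is 15 with scaling to library totals alone.

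Most cytosolic chaperones fell. In the heat shock list 26 of 38 fell and 4 rose. HSPB1, the small heat shock protein HSP27, went from 249 and 241 CPM to 82.5 and 91.3 CPM (log2 -1.50, SE 0.0435), and HSPA8, the constitutive HSP70, from 1977 and 1857 CPM to 1063 and 1088 CPM (log2 -0.83). SERPINH1, a collagen chaperone of the endoplasmic reticulum that heat shock factor induces, fell as well (log2 -1.13). Of 41 proteasome subunits 21 fell and 4 rose, against 13 falls with library totals alone; the catalytic subunit PSMB5 fell (log2 -0.46) and the activator PSME4 rose (log2 0.44).

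**Figure D5:**
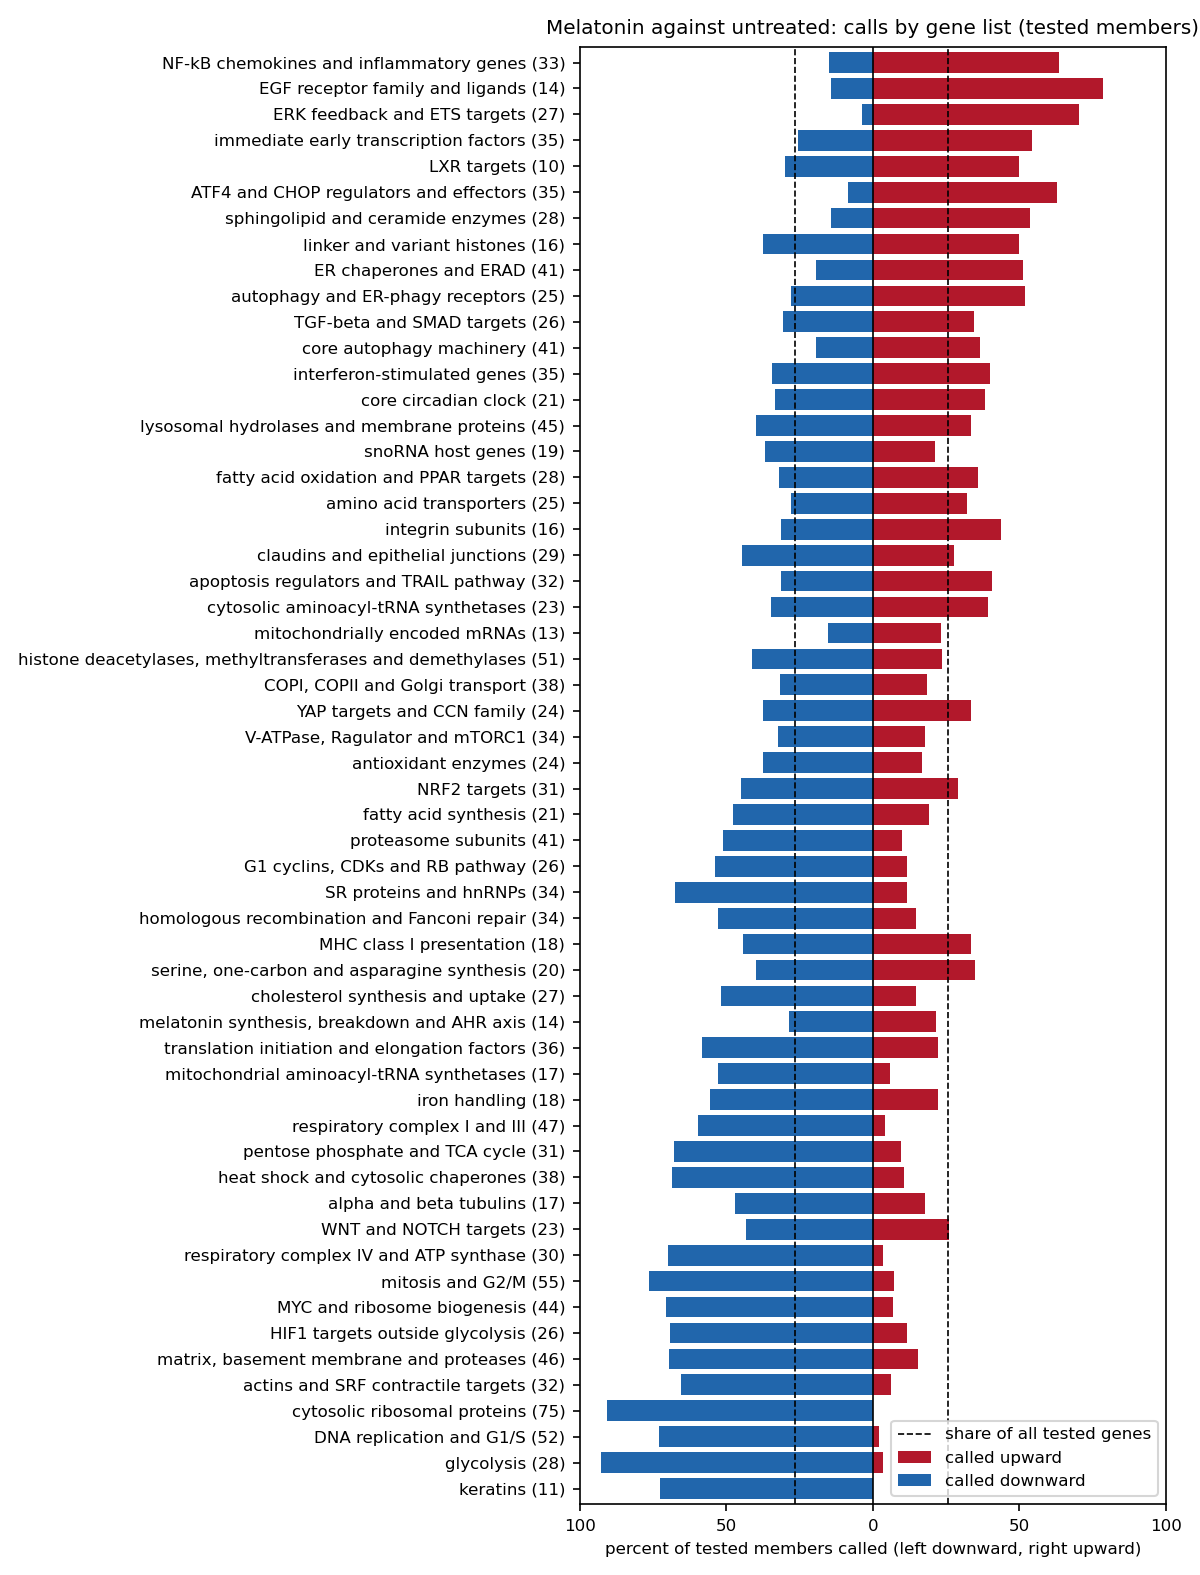
Percent of tested members called downward (blue, left) and upward (red, right) with melatonin, by gene list (rows, number tested in parentheses). Lists drawn have at least 10 tested genes, and marker lists and some others are left out. Dashed lines mark 26.5% and 25.5%, the shares of all tested genes. Glycolysis and ribosomal proteins reach furthest to the left, and the EGF receptor family and ERK feedback genes furthest to the right.

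Most tested keratins and actin genes fell. Of 11 tested keratins 8 fell and 0 rose (median log2 -1.07). KRT7 went from 916 and 973 CPM to 393 and 401 CPM (log2 -1.25, SE 0.0357), KRT18 from 586 and 543 CPM to 268 and 251 CPM (log2 -1.12) and KRT19 from 8.95 and 8.75 CPM to 2.0 and 1.63 CPM (log2 -2.26). All 3 pair or polymerise into the filaments of simple epithelia, and in each the groups were well apart. Of 32 actins and contractile targets of serum response factor 21 fell and 2 rose (6 with the offsets), with ACTB at 3121 and 3093 CPM and 2193 and 2172 CPM (log2 -0.51) and the actin binder TAGLN2 at log2 -0.92. Among tubulins 8 of 17 fell and 3 rose; TUBA1B went from 832 and 802 CPM to 355 and 361 CPM (log2 -1.19). Alpha tubulins are near copies of each other, so their separate values are uncertain.

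Epithelial junction genes were divided, 13 down and 8 up of 29. CLDN1 went from 1.72 and 1.61 CPM to 10.1 and 9.31 CPM (log2 2.55, SE 0.20), while CLDN7 went from 12.6 and 13.4 CPM to 4.25 and 3.14 CPM (log2 -1.79). E-cadherin (CDH1) fell from 8.09 and 8.91 CPM to 5.68 and 4.47 CPM (log2 -0.72), and N-cadherin (CDH2) rose from 23.4 and 21.5 CPM to 34.3 and 34.5 CPM (log2 0.62). These paired values show members of 1 family on opposite sides. Vimentin (VIM), the mesenchymal filament, rose slightly (log2 0.22), and fibronectin (FN1) fell (log2 -0.44).

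Matrix, basement membrane and protease genes were 32 down and 7 up of 46, and 26 down with the offsets. The laminin chain LAMA5 went from 262 and 275 CPM to 113 and 109.6 CPM (log2 -1.27), the collagen chain COL5A1 from 1006 and 973 CPM to 423 and 424 CPM (log2 -1.22) and the protease inhibitor TIMP3 from 201 and 169.9 CPM to 73 and 69 CPM (log2 -1.38). Of the tested fibroblast markers 3 of 5 fell, from summed levels that stayed below 40 CPM in every library; their part in the matrix genes was not tested. Integrin subunits were mixed, with ITGA2 up (log2 1.02) and ITGA5 down (log2 -0.72). The insulin-like growth factor carrier IGFBP3 fell from 428 and 294 CPM to 73.7 and 76.5 CPM (log2 -2.26), whereas CCN1, a YAP and immediate early target, rose from 28.1 and 25 CPM to 71.9 and 72 CPM (log2 1.44). The NOTCH ligands JAG1 (log2 1.91) and JAG2 (log2 -1.28) moved in opposite directions.

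Antioxidant genes, often studied with melatonin, were 4 up and 9 down of 24, and 6 up and 7 down with the offsets. Catalase (CAT) went from 78.5 and 81.3 CPM to 110.4 and 114 CPM (log2 0.49) and the mitochondrial SOD2, also an NF-kB target, from 401 and 379 CPM to 683 and 657 CPM (log2 0.78). SOD1 at 226 and 234 CPM and 246 and 223 CPM was not called, except upward with the offsets or with library totals alone, and the peroxiredoxins PRDX2 (log2 -0.70) and PRDX5 (log2 -0.70) fell. GPX1 fell too (log2 -0.62), a call lost with the offsets.

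Targets of NRF2, the regulator of glutathione and quinone defence, were 9 up and 14 down of 31. Heme oxygenase (HMOX1) went from 81.6 and 79.8 CPM to 31 and 32.1 CPM (log2 -1.36, SE 0.0616), and GCLC, which starts glutathione synthesis, from 61.3 and 61 CPM to 97.6 and 106 CPM (log2 0.73). NQO1 rose by only 0.11 on the log2 scale, a call lost with the offsets and without untreated library 1. In iron handling 10 of 18 fell and 4 rose, or 2 with DESeq2 and 7 with library totals alone; the rises also number 2 without untreated library 1, melatonin library 2 or either chloroquine library. The ferritin heavy chain FTH1 went from 1027 and 1086 CPM to 480.1 and 547 CPM (log2 -1.04) and the transferrin receptor TFRC from 757 and 755 CPM to 408 and 429 CPM (log2 -0.85). Iron regulatory proteins are known to bind both transcripts, blocking translation of the first and stabilising the second. The metallothionein MT2A rose from 108 and 80.2 CPM to 145 and 143 CPM (log2 0.61), and MT1X (log2 0.15) was called upward only with the offsets, with library totals alone or without untreated library 1.

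Cholesterol and fatty acid synthesis genes fell more often than they rose, though only narrowly with library totals alone. SREBP2 drives cholesterol synthesis and LXR drives cholesterol efflux. Of 27 synthesis and uptake genes 14 fell and 4 rose, against 9 falls and 3 rises with DESeq2. Of 21 fatty acid synthesis genes 10 fell and 4 rose. With library totals alone each of these lists has 8 falls and 7 rises. SREBF2 itself went from 169 and 175 CPM to 105 and 100.2 CPM (log2 -0.74), FDPS from 151 and 157 CPM to 93.3 and 93.5 CPM (log2 -0.72), and HMGCS1 by a little (log2 -0.16), a call lost with library totals alone. Fatty acid synthase (FASN) fell from 307 and 333 CPM to 166 and 170.1 CPM (log2 -0.93), as did SREBF1 (log2 -0.89) and the desaturase FADS2 (log2 -0.93). Of 10 LXR targets 5 rose and 3 fell, the sterol exporters ABCG1 (5.76 and 5.59 to 18.5 and 16.1 CPM, log2 1.62) and ABCA1 (9.75 and 8.91 to 17.5 and 14.1 CPM, log2 0.78) among the rises. With the offsets 5 of these targets rose and 0 fell, and with DESeq2, or without melatonin library 1 or either untreated library, 1 fell. The lipid droplet protein PLIN2 fell (log2 -0.82).

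Sphingolipid genes were 15 up and 4 down of 28. The ceramide synthase CERS6 went from 46.3 and 43.1 CPM to 84.6 and 81.6 CPM (log2 0.90) and the acid sphingomyelinase SMPD1 from 16.9 and 14.1 CPM to 27.5 and 28.2 CPM (log2 0.85). Core autophagy genes were 15 up and 8 down of 41, with 20 up with the offsets; MAP1LC3B, which encodes the membrane tag LC3B, rose (log2 0.38). Of 25 autophagy receptors 13 rose, CCPG1, a receptor for the endoplasmic reticulum, from 18.3 and 21.7 CPM to 46.1 and 40.8 CPM (log2 1.12) and SQSTM1 by less (log2 0.29). The mitochondrial receptors BNIP3 (log2 -0.71) and FKBP8 (log2 -1.01) fell. Lysosomal genes were 15 up and 18 down of 45, and 14 up and 9 down with the offsets.

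Among chromatin genes, 12 of 51 tested modifiers rose and 21 fell. The demethylase KDM1A went from 680.5 and 684 CPM to 414 and 427 CPM (log2 -0.70), the deacetylase HDAC1 fell by less (log2 -0.31) and the acetyltransferase KAT2B rose (log2 0.86). Histone genes whose mRNAs can carry poly(A) tails were divided, with H2BC21 up from 3.62 and 2.77 CPM to 9.16 and 11.1 CPM (log2 1.66). Of the nuclear RNAs, the paraspeckle scaffold NEAT1 rose from 1134 and 1049 CPM to 2619 and 2400 CPM (log2 1.20). MALAT1 (log2 0.10) and TUG1 (log2 0.07) were not called; both are called downward with the offsets, and upward with library totals alone or without melatonin library 1. CPS1, the 1 abundant hepatocyte marker, fell from 1361 and 1325 CPM to 444 and 437 CPM (log2 -1.61), and HNF4A, the hepatocyte nuclear factor, had 35 counts in each untreated library and 14 and 6 counts in the melatonin libraries (adjusted p = 6.39e-05). They are the 2 falls among 5 tested hepatocyte markers, of which 0 rose and 3 were not called. With the offsets 2 of the 5 fell and 1 rose.

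Melatonin and chloroquine, the lysosomal weak base given to the third group, were compared in a contrast that sets no untreated library against either. Of the 16877 tested genes 7933 differed between the agents (47.0%), 3892 (23.1%) higher and 4041 (23.9%) lower with melatonin. DHRS2 was 1.39 and 1.76 CPM in chloroquine cells, and melatonin cells stood above them by log2 4.64 (adjusted p = 2.44e-19). AREG at 2.48 and 2.38 CPM and EGR1 at 6.8 and 9.52 CPM in chloroquine cells were also lower than with melatonin (differences of log2 3.25 and 2.32). Both agents had DDIT3 above untreated cells: it was 23 and 25.1 CPM with chloroquine, and the difference between the agents, log2 -0.13, was not called (adjusted p = 0.218). CHAC1 at 4.07 and 5.54 CPM in chloroquine cells was lower than with melatonin by a log2 difference of 1.67.

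Cholesterol synthesis genes were lower with melatonin than with chloroquine in 24 of 27 tested members and higher in 1, with a median log2 difference of -1.11, against 23.9% lower among all tested genes. LXR targets were higher in 7 of 10 and lower in 1, against 23.1% higher among all. ABCG1 was 1.59 and 1.86 CPM in chloroquine against 18.5 and 16.1 CPM in melatonin cells, a log2 difference of 3.33 (adjusted p = 1.38e-15), and ABCA1 was 2.68 and 3.62 CPM against 17.5 and 14.1 CPM (log2 2.34). HMGCS1 was 441 and 431 CPM in chloroquine and 105 and 108 CPM in melatonin cells (log2 -2.04), and LSS, lanosterol synthase, differed by log2 -1.74. In each of these 4 genes the untreated libraries lay between the 2 agents. Of the replication genes 44 of 52, and of the glycolysis genes 24 of 28, were lower with melatonin than with chloroquine, and 0 of either list were higher. Examples were UHRF1 by log2 -1.10, MCM2 by log2 -0.70, PGK1 by log2 -0.93 and LDHA by log2 -0.84. The agents differed in dose and in kind, so these values are set side by side as measured at 16 h.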

How the data were processed

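The authors deposited 1 table of raw read counts, whole numbers for each Ensembl gene in all 6 libraries. The submitters' processing notes name fastp and GRCh38; how reads were aligned, annotated, assigned by strand and treated when mapping to several places is not stated there or in the labels. Symbols, coordinates, length and GC content came from GENCODE 29 and a gene name table, and promoters from RefSeq (GRCh38.p14).

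Testing used edgeR 4.0.16 under R 4.3.3: filterByExpr, TMM factors and a quasi-likelihood fit (robust off) of the 3 groups of 2, with 3 residual and 23.6 prior degrees of freedom. Melatonin was contrasted with untreated and with chloroquine cells, and a call needed an adjusted p (Benjamini-Hochberg, across every tested gene) under 0.05; the fit was tested on simulated data. CPM are TMM-scaled, and depths and the level that a count of 0 allows are given with the libraries. GC and length offsets were loess curves (span 0.3) fitted on 12690 genes whose log2 CPM averaged 1 or more. Between libraries of a group, chi-square divided by its degrees of freedom was 2.36 for untreated, 1.83 for chloroquine and 2.66 for melatonin, so no library was counted as a duplicate.

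The text names the 15 largest rises and falls whose log2 CPM averaged 2 or more and with groups that do not overlap, up to 5 members of each of 67 gene lists with the smallest p, and 67 genes chosen by name. Members, lists and tests were chosen with earlier results of these data known, and no list was given a p. Alternatives were DESeq2 1.42.0, other scalings and count filters, a test against a 1.5-fold change, fewer libraries, a replicate block and the offsets. Some genes and lists are not reported here.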

Additional observations from a re-analysis of the deposited data

How the results depend on the processing

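The count of 8782 genes changed with melatonin lay between 7570 and 8666 when 1 library was left out, where a group of 1 is assumed to vary like the others. It was 6301 with DESeq2 (2879 up, 3422 down), 8776 with RLE size factors, 8586 with no count filter, 8000 with a floor of 50 on the mean count and 8564 in a fit of the 2 groups alone. Against a 1.5-fold change it was 1197 (499 up, 698 down), with 818 of at least 2-fold and 755 between melatonin and chloroquine, since that test asks for larger changes. The floor of 50 on the mean count, which tests fewer genes, gave 587 changes of at least 2-fold against 1310, and DESeq2 gave 5274 genes between the agents against 7933; the cause of the latter was not tested. Changes of at least 2-fold lay between 1209 and 1333, and genes between the agents between 6375 and 8076, with 1 library left out.

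Among named genes called with or without the GC and length offsets, 4 changed direction with them. They stood at log2 0.13 for CDKN1A, -0.13 for MALAT1, -0.10 for TUG1 and -0.0450 for TAF1D, a snoRNA host gene at 0.19 without offsets. The cause in each was not tested. Changes of sign in genes called in neither fit are not counted. Of 366 named and tested genes, 177 kept their side of the threshold in every alternative run, and those called kept their direction. A call was lost by 174 against a 1.5-fold change, by 15 with the offsets and by 10 with DESeq2.

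Replicate numbers do not pair these libraries: deviations of same-numbered libraries correlated at -0.000479 between untreated and melatonin, -0.0133 between untreated and chloroquine and -0.0411 between chloroquine and melatonin. With a replicate block 8731 genes were called with melatonin and 7878 between the agents; with block and offsets together 8131 were called, and CDKN1A, MALAT1, TUG1 and TAF1D stood at log2 0.13, -0.13, -0.10 and -0.0452.

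At these depths genes with few counts, such as the melatonin receptors, allow no comparison.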
